A study of Homo sapiens with 4 samples.

Results

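Epithelial adhesion and surface glycoprotein genes were followed across 4 human germ cell tumour cell lines. The group holds 10 genes, of 19775 with a probe set of their own on the arrays: the cadherins CDH1 and CDH2, EPCAM, the claudins CLDN3, CLDN4, CLDN6 and CLDN7, the surface proteins CD9 and CD24, and VIM. The genes are named in the rule and were selected on measured values of these same arrays, so the differences between lines below are a description and carry no test. Each of the 4 lines was measured on 1 single-colour oligonucleotide array of 54675 probe sets and stands for 1 tumour subtype, as the labels give it. TCam-2 represents seminoma, GCT27 is labelled embryocarcinoma (embryonal carcinoma) and GCT44 yolk sac tumour, and all 3 are listed as testicular. NT2D1 is labelled teratoma and came from a lung metastasis of a testicular tumour; the line is generally worked with as pluripotent embryonal carcinoma, so its values stand for that line and not for differentiated teratoma. All cultures held fetal bovine serum with penicillin and streptomycin, TCam-2 in RPMI-1640 and the others in Dulbecco's medium, so medium and line cannot be told apart for TCam-2. With 1 array per line there is no replicate error for any value. In cultures measured in bulk, fewer cells with a transcript and less of it per cell cannot be told apart.

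Epithelial cells hold together through adherens junctions, in which E-cadherin (the product of CDH1) binds its like on the next cell and is tied to actin by catenins, and through tight junctions, whose strands are made of claudins. When cells change to a mesenchymal form, E-cadherin is often replaced by N-cadherin (CDH2) and the intermediate filament protein vimentin (VIM) rises, while transcription factors of the SNAI, ZEB and TWIST families repress epithelial genes, in part through E-box motifs in their promoters. Human pluripotent cells are epithelial and carry E-cadherin, EPCAM, CD9 and CD24 on their surface, and yolk sac tumours resemble extraembryonic endoderm.

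The arrays were alike in brightness, with median intensities from 73.6 to 79.3. Intensities below 76.4 units, the median of all values, are not ordered on such arrays and were set to that floor for fold differences, which are then lower bounds written "at least". Where 4 values follow each other without their lines, the order is TCam-2, NT2D1, GCT27, GCT44. Markers of seminoma, embryonal carcinoma and yolk sac tumour were read, but none of teratoma, the label of NT2D1. SOX17, for seminoma, read 3819 in TCam-2 and at most 44.2 elsewhere. For embryonal carcinoma, SOX2 read 20575 in NT2D1 and 18309 in GCT27, and DNMT3B 2841, 11360, 23760 and 2377. For yolk sac tumour, APOA2 read 30689 in GCT44. AFP read 372 there and 66.9 to 126 elsewhere, and GATA4 104, both short of the rule of size given below. Of 8 fibroblast markers, 6, 6, 5 and 4 lay above the floor in TCam-2, NT2D1, GCT27 and GCT44, with summed intensities of 14540, 8777, 7997 and 8474, and DCN stayed between 69.3 and 95.6. By the rule of size given below, LUM (3354 units, 13.9-fold) and COL3A1 (864 units) of that list were higher in TCam-2, COL1A1 was 5.03-fold lower there (792 against 3982 to 6093), and COL1A2 was at least 17.6-fold lower in NT2D1. Of 4 leukocyte markers with a probe set, PTPRC and CD14 lay below the floor in every line, and CD3E (88.4) and LYZ (112) lay above it only in GCT44. The GCT44 array had the highest 3'/5' signal ratio for ACTB, 4.21 against 2.49 to 2.97, while its GAPDH ratio of 1.04 lay among the 0.898 to 1.09 of the others. The part of these in the results was not tested.

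RefSeq promoter windows (build GRCh38.p14, 250 bases upstream of a start site) were found for 8 of the 10 genes; CDH1 and EPCAM were not among them. The windows below belong to CLDN7, CD9 and CD24, which were at background in GCT44, and to CDH2, which was highest there, and they are shown to let the sequence be set beside those opposite levels. CLDN3 and CLDN4 were also below the floor in GCT44, and their windows are not printed. CLDN7 was below the floor in NT2D1 as well. For a gene with several starts, the window with the most CG dinucleotides is given. Capitals mark the E-box CACCTG on either strand (CAGGTG on the strand shown), a motif that ZEB and SNAI proteins are known to bind.
CLDN7, chr17:7262479-7262728, minus strand: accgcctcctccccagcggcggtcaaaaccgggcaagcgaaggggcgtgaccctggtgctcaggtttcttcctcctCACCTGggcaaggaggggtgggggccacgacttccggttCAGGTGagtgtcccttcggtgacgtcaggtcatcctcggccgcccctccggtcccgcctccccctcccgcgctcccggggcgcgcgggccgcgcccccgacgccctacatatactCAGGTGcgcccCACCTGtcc
CD9, chr12:6200592-6200841, plus strand: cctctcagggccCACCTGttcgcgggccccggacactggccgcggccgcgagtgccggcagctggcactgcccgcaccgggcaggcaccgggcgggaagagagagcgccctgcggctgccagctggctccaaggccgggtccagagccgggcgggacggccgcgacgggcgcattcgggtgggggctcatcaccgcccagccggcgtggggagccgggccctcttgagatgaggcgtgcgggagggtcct
CD24, chr6:106975466-106975715, minus strand: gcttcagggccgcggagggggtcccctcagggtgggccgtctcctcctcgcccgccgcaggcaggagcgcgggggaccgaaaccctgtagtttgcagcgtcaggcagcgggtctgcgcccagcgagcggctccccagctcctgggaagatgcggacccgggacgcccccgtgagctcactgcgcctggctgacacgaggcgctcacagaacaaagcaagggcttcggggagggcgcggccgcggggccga
CDH2, chr18:28177131-28177380, minus strand: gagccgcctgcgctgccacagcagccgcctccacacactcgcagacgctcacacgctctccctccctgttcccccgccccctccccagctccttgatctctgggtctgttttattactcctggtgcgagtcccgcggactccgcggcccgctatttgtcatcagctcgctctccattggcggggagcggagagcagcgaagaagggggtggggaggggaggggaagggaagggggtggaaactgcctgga

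The CLDN7 window holds 4 matches to the E-box, which begin 174, 135, 20 and 9 bases before the start. At least 1 match occurs in 17.5% of 35116 windows of that length in the table, and 4 or more in 43 of them, or 0.12%. The CD9 window holds 1 match, 238 bases before the start, and the windows taken by the same rule for CD24, CDH2, CLDN3, CLDN4, CLDN6 and VIM hold none. The window of another CD24 start, with fewer CG dinucleotides, holds 1 match, 249 bases before that start. The windows of the other CLDN7, CD9 and CDH2 starts and of the remaining CD24 start hold none, so the 4 CLDN7 matches belong to 1 of its 2 starts. In CG content, the windows shown held 29 CG dinucleotides for CD9, 27 for CD24, 25 for CLDN7 and 17 for CDH2. These genes have several starts, and the window richest in CG was taken. Their counts therefore cannot be compared with the median of 11 over all windows. Their other starts held 28, 10 and 1 for CD9, 20 and 17 for CD24, 9 for CLDN7 and 4 for CDH2. VIM and CLDN4, with 1 start each, held 8 and 4. TATAAA on either strand was found in none of the 8 windows taken by that rule, against 10.7% of all windows. The window of the other CDH2 start holds 1. A match is a stretch of letters and not a measured binding site, and the lines' DNA methylation arrays are not used here.

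The rule of size called a gene higher or lower in 1 line if the nearest of the other 3 lines was at least 4-fold (2 on the log2 scale) away. All 10 genes reached the floor in at least 1 line and were compared, together with the other genes that did so. Most calls among the 10 genes were in GCT44: 4 were lower there, CDH1, EPCAM, CD9 and CD24, against 1.69% of the 14926 genes compared, and 1 was higher, CDH2, against 1.70%. In TCam-2, 1 gene was higher, CLDN4, against 1.49%, and none was lower, against 0.744%. None was higher or lower in NT2D1, against 0.523% and 0.241%, or in GCT27, against 0.603% and 0.322%. Since the genes were selected on these values, nothing is read from these shares.

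**Figure D1:**
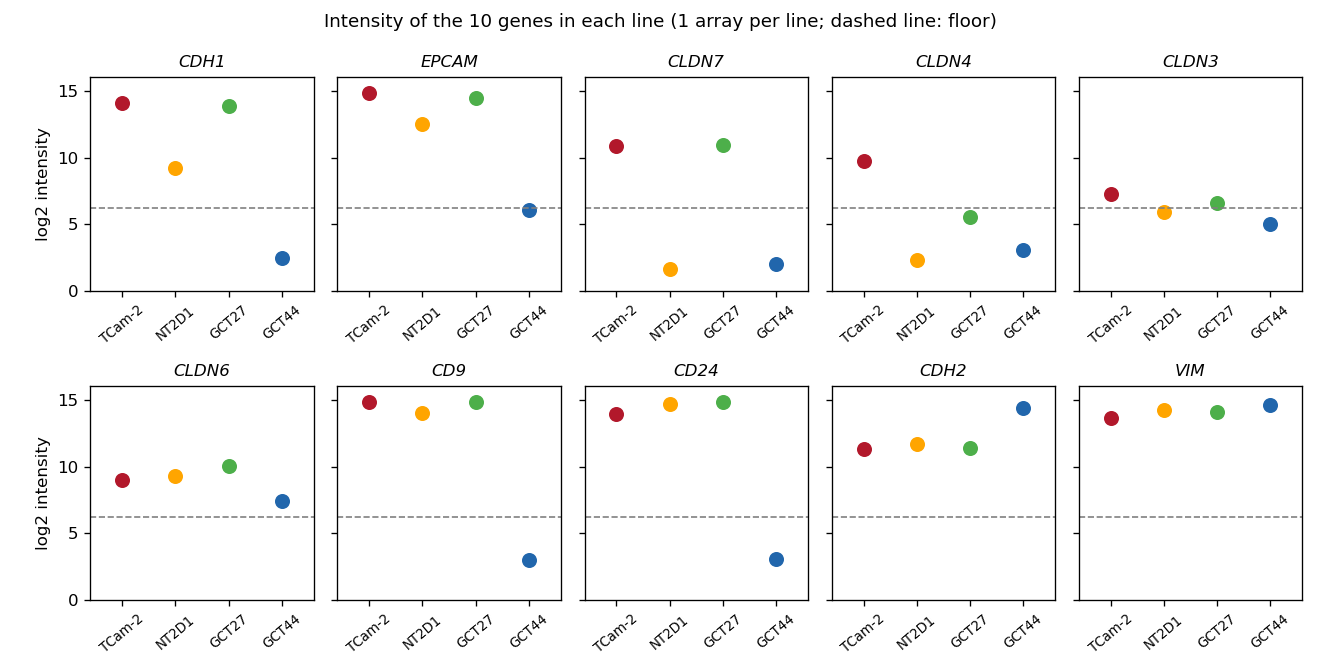
Intensity of the 10 genes (log2, vertical axis) in the 4 lines (horizontal axis), 1 point per array, for the brightest probe set of each gene. The dashed line is the floor of 76.4 units; the GCT44 point lies below it for CDH1, EPCAM, CLDN7, CLDN4, CLDN3, CD9 and CD24, and well above the other lines for CDH2.

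CDH1, which encodes E-cadherin, read 17193 in TCam-2 and 14524 in GCT27, 580 in NT2D1 and 5.77 in GCT44. TCam-2 and GCT27 were both high, NT2D1 was well below them, and GCT44 was below the floor. TCam-2 exceeded NT2D1 29.6-fold and GCT44 at least 225-fold, and NT2D1 still exceeded GCT44 at least 7.59-fold. The other CDH1 probe set was dim, with 112 in TCam-2 and 3.55 to 57.4 in the other lines, below the floor. With the median over both probe sets, or with the dimmer one alone, the margin of CDH1 in GCT44 was 0.00, and with a floor at the 70th percentile (252 units) it was -1.20, short of the size rule.

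CDH2, which encodes N-cadherin, read 2541 in TCam-2 and 2711 in GCT27, 3364 in NT2D1 and 21387 in GCT44. It was above the floor in every line, the other 3 lines lay within 1.32-fold of each other, and GCT44 stood 6.36-fold above the nearest of them. Its other probe set gave 394, 421, 408 and 6405, a 15.2-fold margin for GCT44. CDH1 and CDH2 thus lay at opposite ends in GCT44, while in NT2D1 the low CDH1 level came with a CDH2 level within 1.32-fold of TCam-2.

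EPCAM, a homophilic adhesion glycoprotein of epithelial and pluripotent cells, read 28656 in TCam-2 and 22390 in GCT27, 5782 in NT2D1 and 69.2 in GCT44. The order of the lines was that of CDH1, with a smaller step to NT2D1, which lay 4.96-fold below TCam-2 and 3.87-fold below GCT27. GCT44 lay at least 75.7-fold below the nearest line. EPCAM has a single probe set here, so the low GCT44 reading could not be set beside another.

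The claudins did not share a pattern. CLDN7, a tight junction claudin that also binds EPCAM, read 1830 in TCam-2 and 1963 in GCT27, 3.21 in NT2D1 and 4.05 in GCT44. It split the lines into pairs: TCam-2 and GCT27 were within 1.07-fold of each other, NT2D1 and GCT44 were below the floor, and the gap between the pairs was at least 23.9-fold on its only probe set. CLDN4, a claudin that limits the passage of sodium ions, read 863 in TCam-2 and 5.10, 47.5 and 8.35 in NT2D1, GCT27 and GCT44. It was above the floor only in TCam-2, at least 11.3-fold over the rest. Taking the median of its 2 probe sets ended that call, with a margin of 0.31, as did the floor at the 70th percentile, with 1.78; its other probe set lay below the floor in every line.

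CLDN6, an embryonic claudin found in pluripotent cells and in germ cell tumours, read 504 in TCam-2 and 1071 in GCT27, 626 in NT2D1 and 171 in GCT44. Of these 4 claudins it was the one above the floor in every line, and the lines ran from GCT44 up to GCT27 over a 6.28-fold range. Its other probe set gave 371, 309, 720 and 181, with the same lowest and highest line, but with TCam-2 and NT2D1 in the reverse order. Neither probe set met the size rule in any line, with margins of -1.56 and -0.77 for GCT44. CLDN3 was dim throughout, with 152 in TCam-2 and 96.7 in GCT27, 60.0 in NT2D1 and 33.3 in GCT44, a range of at least 1.99-fold.

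CD9 and CD24 kept their signal in NT2D1. CD9, a tetraspanin that organizes integrins and other proteins in the membrane, read 29672 in TCam-2 and 29639 in GCT27, 16543 in NT2D1 and 8.06 in GCT44. TCam-2, GCT27 and NT2D1 lay within 1.79-fold of each other and GCT44 was below the floor. The other 2 CD9 probe sets lay below the floor in every line, at 40.2 to 70.3 and at 7.24 to 31.8, so the GCT44 reading rests on 1 probe set. CD24, a small heavily glycosylated protein anchored in the outer membrane leaflet, read 15790 in TCam-2 and 29376 in GCT27, 26123 in NT2D1 and 8.61 in GCT44. Here TCam-2 was the lowest of the 3 bright lines. All 6 CD24 probe sets gave the same picture: GCT44 read between 2.36 and 37.4, below the floor on each, and its margin ran from at least 18.2-fold to at least 216-fold. TCam-2 was the lowest of the other 3 lines on each of the 6, with 1394 to 16481 units.

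VIM, which encodes vimentin, read 12341 in TCam-2 and 17191 in GCT27, 19561 in NT2D1 and 24249 in GCT44. It was bright in every line, and its range of 1.96-fold fell short of the size rule. GCT44 was 1.24-fold above NT2D1, but with arrays scaled to the spiked-in controls GCT27 was highest instead, by 0.02 on the log2 scale. Its other probe set read 20.9 to 91.0, above the floor in GCT44 alone.

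**Figure D2:**
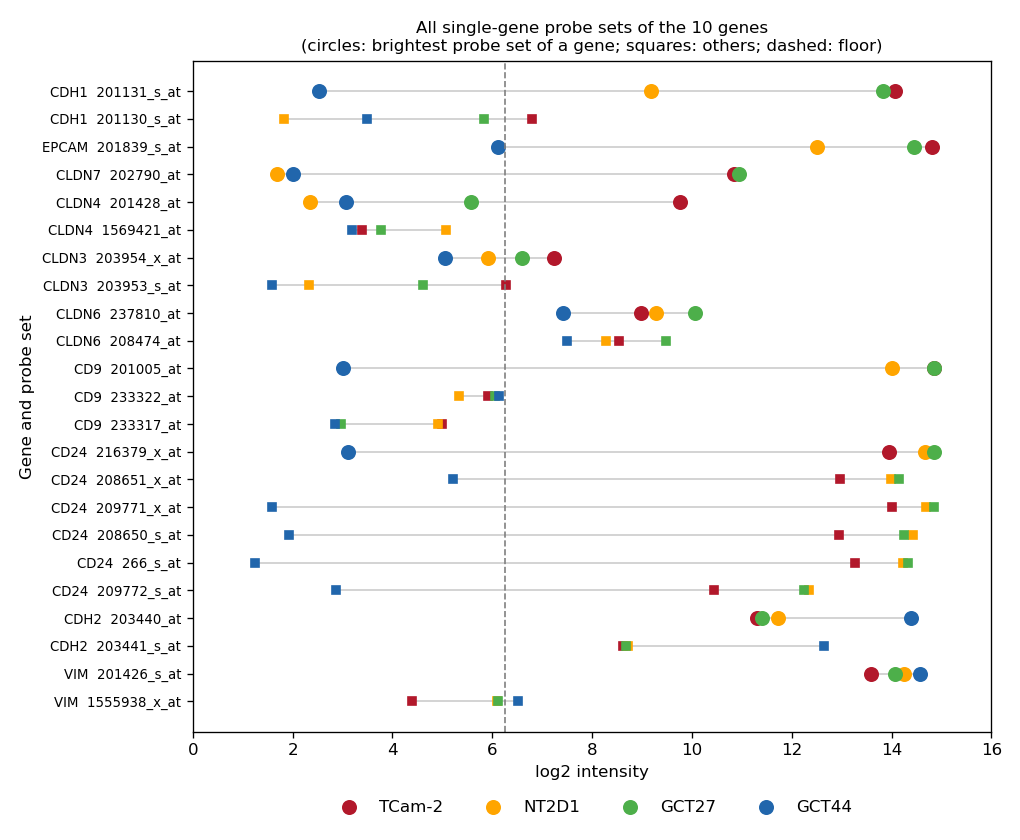
All 23 single-gene probe sets of the 10 genes, with log2 intensity on the horizontal axis and 1 coloured point per line; circles mark the brightest probe set of a gene, squares the others, and the dashed line the floor. The 6 CD24 rows show GCT44 alone at the left, while the extra probe sets of CD9, CLDN4, CLDN3, VIM and CDH1 lie near or below the floor.

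The lines were also compared in pairs. Between TCam-2 and GCT27, 1 of the 10 genes, CLDN4, was at least 4-fold apart, against 7.37% of all genes compared. CDH1 and CLDN7 were apart between NT2D1 and GCT27, against 4.67%, and CDH1, EPCAM, CLDN4 and CLDN7 between TCam-2 and NT2D1, against 8.26%. Between NT2D1 and GCT44, 5 genes were apart, CDH1, CDH2, EPCAM, CD9 and CD24, against 8.53%. Between TCam-2 and GCT44, 7 were apart, those 5 with CLDN4 and CLDN7, against 10.1%, and between GCT27 and GCT44 also 7, those 5 with CLDN6 and CLDN7, against 9.45%. Over all 4 lines, 8 of the 10 had a range of at least 4-fold, all but CLDN3 and VIM, against 20.5%. Without GCT44 the count was 4, CDH1, EPCAM, CLDN4 and CLDN7, against 13.5% of genes. Without GCT27, 4 genes rather than 1 were higher in TCam-2, CLDN4 joined by CDH1, EPCAM and CLDN7, against 2.50% of genes.

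**Figure D3:**
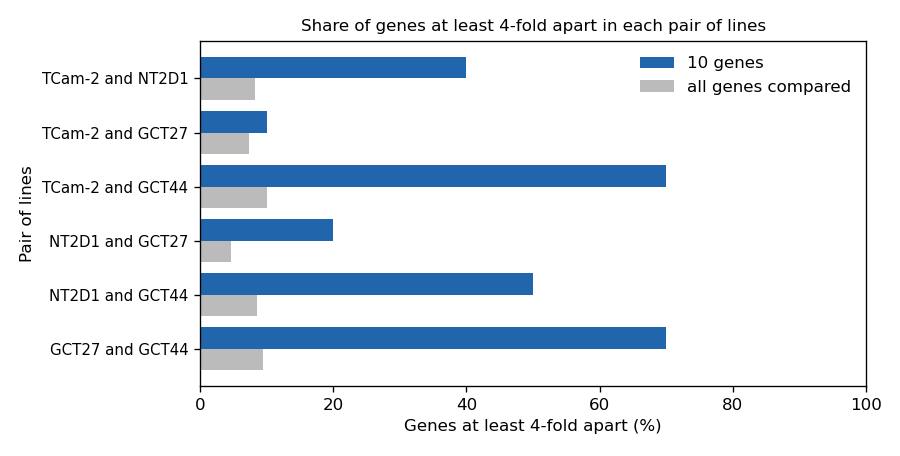
Share of genes at least 4-fold apart (percent, horizontal axis) in each of the 6 pairs of lines, for the 10 genes (blue) and for all 14926 genes compared (grey). The 10 genes reach 70% in both pairs of GCT44 with TCam-2 and GCT27, and 10% between TCam-2 and GCT27.

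The pairing seen in CLDN7 was then counted over all genes, a count chosen after the values were seen. A gene was at least 4-fold higher in both TCam-2 and GCT27 than in both NT2D1 and GCT44 for 0.422% of the genes compared, 63 of 14926. CDH1 (25.0-fold) and CLDN7 (at least 23.9-fold) were among them, and EPCAM fell just short with a gap of 1.95 on the log2 scale. The reverse pairing held for 0.228% of genes and for none of the 10. EPCAM passed with quantile normalization and with arrays scaled to the spiked-in controls, which made 3 of the 10.

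Other genes of the epithelial programme were read from lists written for this description. For the list counts below, the shares of all genes compared were 1.49% higher and 0.744% lower in TCam-2, and 0.523% and 0.241% in NT2D1. They were 0.603% and 0.322% in GCT27, and 1.70% and 1.69% in GCT44. Of 8 epithelial transcription and splicing regulators compared, 3 were higher in TCam-2, GRHL1, OVOL1 and OVOL2, and 1 was lower in GCT44, ESRP1. ESRP1, a splicing factor that maintains epithelial isoforms, read 6862 in TCam-2 and 3598 in GCT27, 386 in NT2D1 and 7.39 in GCT44, an order of lines like that of CDH1, and a gap of 9.33-fold between the pairs. Its other probe set gave 7001, 120, 1930 and 5.35, so the call in GCT44 held on 1 of its 2 probe sets. GRHL2, a transcription factor that activates CDH1 and claudin genes, read 2128 in TCam-2 and 567 in GCT27, 38.9 in NT2D1 and 45.0 in GCT44, at least 7.42-fold between the pairs on its only probe set. GRHL1 of the same family read 6012 in TCam-2 and 90.7 to 456 elsewhere, 13.2-fold over the nearest line. OVOL2, a repressor of ZEB1, read 1648 in TCam-2 and 285 in GCT27, 37.1 in NT2D1 and 69.0 in GCT44. The call of OVOL1 (4.30-fold) was lost when the arrays were scaled to the spiked-in controls, GRHL2 also met the rule in TCam-2 with arrays centred on the median, and GRHL1 was also lower in NT2D1 with quantile normalization.

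As a group these 8 regulators had a median difference from the mean of the other lines (log2) that was 3.24 for TCam-2, -1.49 for NT2D1, 0.09 for GCT27 and -1.48 for GCT44. The medians over all genes compared were -0.06, -0.03, -0.02 and -0.04. The sign in each line was the same under the 3 other scalings tried, of which the one to spiked-in controls moved the median of all genes to 0.28 in GCT27 and -0.31 in GCT44.

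Of 13 epithelial surface and trafficking genes compared, 3 were higher in TCam-2 and 2 lower in GCT44. The higher genes were TMEM30B (1517 units, at least 19.9-fold), ST14, which encodes the membrane protease matriptase (1117, at least 14.6-fold), and RAB25, a GTPase of epithelial vesicle traffic (2140, 6.78-fold). SPINT2, an inhibitor of membrane proteases, read 6203 in TCam-2 and 4491 in GCT27, 710 in NT2D1 and 66.3 in GCT44, at least 9.29-fold lower in GCT44 than in the nearest line. AP1M2, an adaptor subunit of epithelial sorting, was 4.86-fold lower in GCT44 at 87.0 units, on 1 of its 2 probe sets. PRSS8, which encodes the protease prostasin, split the lines as CLDN7 did, with 886 in TCam-2 and 721 in GCT27 against 95.0 in NT2D1 and 113 in GCT44, a 6.40-fold gap. The list medians for TCam-2, NT2D1, GCT27 and GCT44 were 2.04, -1.01, 0.25 and -1.29, with the same signs under the other scalings.

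Transcription factors that drive the change to a mesenchymal form were less uniform. Of 9 compared, 2 were higher in NT2D1, ZEB2 and TWIST2, and none met the rule in the other lines. ZEB1, a repressor of CDH1, read 6.72 in TCam-2 and 114 in GCT27, 858 in NT2D1 and 1584 in GCT44. NT2D1 and GCT44 lay 7.55-fold or more above both other lines, the reverse of the pairing of CLDN7, and ZEB1 was the only one of the 9 to do so by 4-fold. Another ZEB1 probe set gave 47.0, 239, 115 and 365 and a further one 4.76, 182, 6.55 and 282, with the same pair on top by 1.06 and by at least 1.25 on the log2 scale, and the last lay below the floor in every line. ZEB2 read 5.59, 1125, 16.1 and 232, highest in NT2D1 and above the floor again in GCT44. TWIST2 read 318 in NT2D1 and 53.4 to 65.3 elsewhere. The ZEB2 call held on 1 of its 5 probe sets and the TWIST2 call on 1 of 2. Each was the only probe set of its gene to reach 4 times the floor and so able to meet the rule. Another ZEB2 probe set gave 5.83, 242, 3.84 and 97.0. SNAI1 reached the floor only in GCT44 (124), SNAI2 ran from 122 in GCT27 to 433 in NT2D1, and TWIST1 from 538 in GCT27 to 3984 in GCT44. The median of the list was -0.69 in both TCam-2 and GCT27, 0.51 in NT2D1 and 0.38 in GCT44, where it was -0.01 with scaling to the spiked-in controls.

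**Figure D4:**
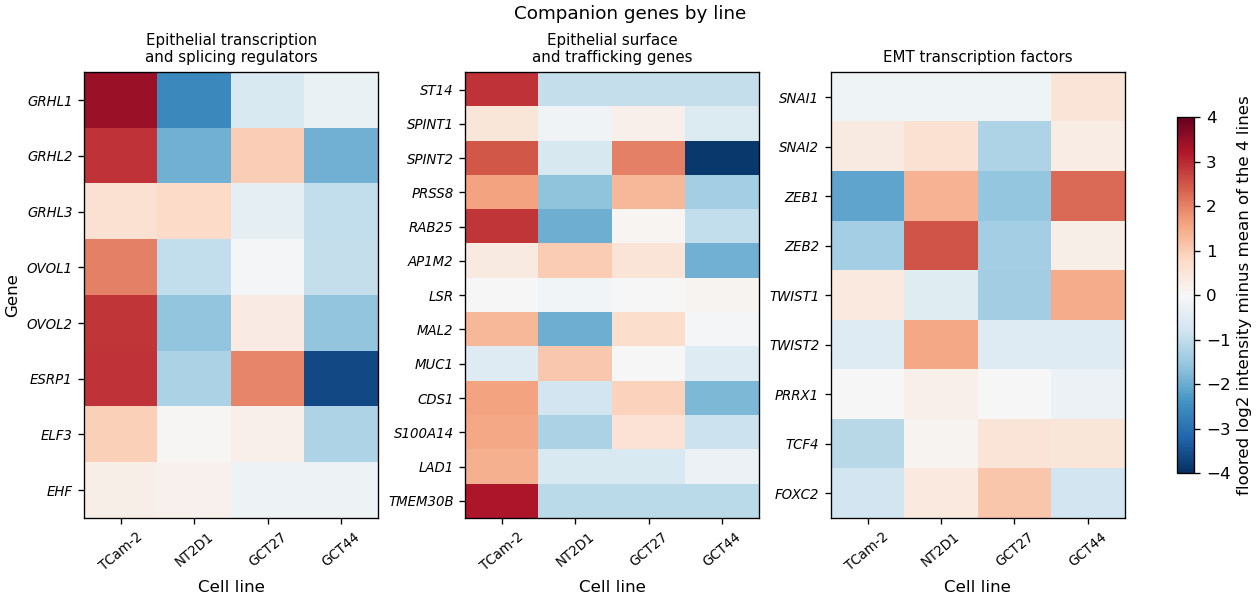
Floored log2 intensity minus the mean of the 4 lines (colour scale, -4 to 4) for the genes compared in 3 lists (rows) and the 4 lines (columns). TCam-2 is red for ESRP1, GRHL2 and OVOL2 and blue for ZEB1, while NT2D1 and GCT44 show the opposite colours for these genes, and GCT27 is red for ESRP1 and blue for ZEB1.

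Of 12 mesenchymal genes compared, 2 were higher in GCT44 and none was lower in any line, although SPARC was lower in GCT44 with arrays scaled to the spiked-in controls. FN1, which encodes the matrix glycoprotein fibronectin, read 3049 in TCam-2 and 1432 in GCT27, 4085 in NT2D1 and 29040 in GCT44 (7.11-fold). LOX, a collagen cross-linking enzyme, read 47.2, 107, 34.2 and 3226 (30.2-fold). In pairs of lines, other genes of the list went the other way. By at least 4-fold, 4 were higher in NT2D1 than in GCT44 and 2 lower, against 8.53% of all genes apart in that pair. Between GCT27 and GCT44, 3 were higher in GCT27 and 2 lower, against 9.45%. TNC read 171, 2668, 1760 and 79.5, and MMP2 184, 1500, 2518 and 97.3. The list median was -1.25 in TCam-2, below the -0.06 of all genes there, and lay between -1.25 and -1.17 over the scalings tried. In NT2D1, GCT27 and GCT44 the medians were -0.07, 0.10 and 0.15, and with scaling to the spiked-in controls 0.01, 0.43 and -0.25.

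Of 9 adherens junction partners compared, 1 met the rule, JUP, which encodes plakoglobin of adherens junctions and desmosomes, at 2437 units in TCam-2 and 379 to 554 elsewhere (4.40-fold). CTNNB1, the beta-catenin that binds both cadherins, ran from 13150 in GCT27 to 18755 in GCT44, CTNNA1 from 4062 in NT2D1 to 6887 in GCT27, and NECTIN3, an adhesion protein of the nectin family, from 641 in TCam-2 to 3747 in NT2D1. Of 8 other cadherins compared, CDH3, which encodes P-cadherin, read 2190, 332, 2168 and 7.41 in TCam-2, NT2D1, GCT27 and GCT44, an order of NT2D1 and GCT44 below both others like that of CDH1. CDH12 was at least 23.5-fold higher in GCT44 (1799 units), CDH6 at least 11.4-fold higher in NT2D1 (872), and CDH11 at least 6.66-fold lower in TCam-2, which was seen on 1 of its 3 probe sets that reached 4 times the floor in some line and so could meet the rule.

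Among 9 other claudins, CLDN10 was at least 7.94-fold lower in GCT44 and CLDN11 was 4.44-fold higher there (1681 units), a call lost with scaling to the spiked-in controls. Of 15 tight junction and polarity genes, MARVELD2, which encodes tricellulin, was at least 11.8-fold lower in GCT44, OCLN, which encodes occludin, was 5.90-fold lower in NT2D1 at 641 units, and JAM2 was at least 4.36-fold higher in NT2D1. Of 2 MARVELD2 probe sets, 1 was lower in GCT44 and 1 was instead higher in TCam-2, and of 4 OCLN probe sets 2 were lower in NT2D1. OCLN read 6166 in GCT44, so this tight junction transcript was present where CDH1, EPCAM and CLDN7 were at background. Of 9 desmosome genes only DSC3 met the rule, 11.4-fold higher in TCam-2. DSP, which encodes desmoplakin, read 16519 in TCam-2 and 15714 in GCT44, against 3242 in NT2D1 and 7334 in GCT27. The desmosome list medians for TCam-2, NT2D1, GCT27 and GCT44 were 1.20, -0.61, -0.36 and -0.58. MARVELD3 was 4.14-fold higher in TCam-2 and GCT27 than in the other pair on its brightest probe set, and its 2 dimmer probe sets gave gaps of at least 1.23 and at least 0.92 on the log2 scale, with NT2D1 and GCT44 below the floor.

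Of 19 tetraspanins and CD9 partners compared, 2 met the rule. ITGA6, which encodes the laminin receptor subunit integrin alpha 6 and associates with tetraspanins, read 7524, 3822, 12843 and 7.35 in TCam-2, NT2D1, GCT27 and GCT44, at least 50.0-fold lower in GCT44, and its other probe set gave 8.30 in GCT44 against 754 to 3028. TSPAN12 was 11.6-fold lower in TCam-2, on 2 of its 3 probe sets. By the rule 2 of the 3 were also higher in GCT44, though the brightest was only 2.40-fold over the nearest line there. CD81, a tetraspanin related to CD9, read 2718 in GCT44 against 4761 to 10699, 1.75-fold below the nearest line. CD53 (88.8 in GCT44, 2.50-fold below the nearest line) and CD82 (31.1, below the floor) were also lowest there, while CD63 ran from 11560 in GCT27 to 17365 in TCam-2. Among the genes highest in GCT44 instead were TSPAN3 (9808, 1.09-fold over the nearest line), TSPAN6 (8851, level with NT2D1) and TSPAN8 (240, 3.03-fold). The list median in GCT44 was -0.09, against -0.04 for all genes.

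The genes whose pattern over the 4 lines lay nearest to that of CDH1, by Euclidean distance between floored log2 values centred on each gene's mean, were PLAAT3 (distance 1.14), SGK1 (1.44) and ESRP1 (1.52). Nearest to EPCAM were the pluripotency genes NANOG (1.18) and L1TD1 (1.36), and ITGA6 (1.40). FAM222A (0.08), FYB2 (0.13) and GABRB2 (0.15) lay nearest to CDH2, and RHBDD2 (0.04), GTF2IRD1 (0.09) and PLOD3 (0.09) to VIM. NANOG read 22390, 13322, 22428 and 2.29 in TCam-2, NT2D1, GCT27 and GCT44. Each likeness rests on 4 arrays.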

How the data were processed

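Total RNA was prepared with a column kit and labelled with biotin, per the labels. The authors deposited 1 linear intensity for each probe set of an array, and the trimmed mean (2% from each end) was 500.1 on all arrays. The submitters' processing notes name RMA without a version, which gives log2 values, so these are not its usual output. Scanner settings and genome build are not given in the sources used here. Here log2 was taken. Of 54675 probe sets, 41097 were listed with 1 gene symbol in the array annotation, 1801 with several and 11777 were not listed. Symbols were updated by gene identifier. Each gene was read from the brightest of its single-gene probe sets, by mean log2. The floor was 76.4 units, and the 14926 genes reaching it in any line were compared by the rule of size, with no test and no p-value. Precision is limited by the number of arrays.

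The 10 genes and all lists were chosen with earlier results of these data known. Of each list, up to 4 genes with the widest margins are named, and further ones (GRHL2, PRSS8, MARVELD3, ZEB1, SNAI1, SNAI2, TWIST1, CTNNB1, CTNNA1, CD81, CD53, CD82, CD63, DSP, NECTIN3, TNC, MMP2, TSPAN3, TSPAN6, TSPAN8) after their values were seen. Of 158 list entries, 9 had no probe set of their own. The size rule was tested on simulated data. Alternatives changed the probe set, the floor, the filter, the scaling, the threshold, the reference and the lines included. Computation used Python 3.11.15, numpy 2.4.6 and pandas 2.3.3.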

Additional observations from a re-analysis of the deposited data

How the results depend on the processing

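Of 252 recomputed counts of the 10 genes, 219 stayed within 1.5 times the reported count, among them counts of 0 that stayed 0. The counts did not move beyond 1.5 times with quantile normalization, centred arrays, scaling to spiked-in controls, no floor, log2 of the value plus the floor, no filter, or the brightest probe set by linear mean, an alternative added after the values were seen. All 10 genes passed the filter, so leaving it out could not move their counts. Leaving out _s_at and _x_at probe sets removes CDH1, EPCAM, CD24, CLDN3 and VIM. Of the genes left, 1 was lower in GCT44, against 1.41% of all genes, and all 5 had a 4-fold range, against 20.2%. GCT44 had 4 apart from TCam-2 and 4 from GCT27, against 9.77% and 9.17%. NT2D1 had 2 apart from TCam-2 and 2 from GCT44, against 8.27% and 8.33%, and 1 from GCT27, against 4.48%. The TCam-2 and GCT27 pairing held for 1, against 0.39%. With the second brightest probe set, where a gene has one, 2 of the 10 genes were lower in GCT44, against 0.985%, and 0 higher in TCam-2, against 1.34%. A 4-fold range was met by 4, against 17.9%. GCT44 had 4, 4 and 3 apart from TCam-2, GCT27 and NT2D1, against 8.49%, 7.88% and 7.17%. The pairs TCam-2 with NT2D1, NT2D1 with GCT27 and TCam-2 with GCT27 had 2, 1 and 0, against 7.06%, 3.85% and 6.24%. The pairing held for 1, against 0.308%. With the median over probe sets 2 were lower in GCT44, against 1.01%, and 0 higher in TCam-2, against 1.28%. In that setting 0 were apart between TCam-2 and GCT27, against 5.97%, and 3 between NT2D1 and GCT44, against 6.74%. A floor at the 70th percentile left 0 higher in TCam-2, against 0.958%, and 0 apart between TCam-2 and GCT27, against 4.27%. A threshold of 1 gave 2 apart between TCam-2 and GCT27, against 24.6%. Against the mean of the other 3 lines, 6 were higher in TCam-2, 5 in GCT27 and 2 in NT2D1, and 2 were lower in NT2D1. The shares of all genes were 3.24%, 2.52%, 2.07% and 1.39%. Leaving out 1 line, counts ranged from 1 to 4 for higher in TCam-2, 0 to 2 for higher in GCT27, 0 to 2 for lower in NT2D1 and 4 to 8 for the 4-fold range. The shares of all genes ranged from 2.07% to 2.50%, 1.02% to 1.82%, 0.593% to 0.848% and 13.5% to 16.8%. In all, 577 margins were recomputed. Where the reported margin met the rule, none changed sign and 5 fell short of the threshold. A gene that a setting left out has no recomputed margin there, so further lost calls are not among these 5. CD9 in GCT44 was lost with the median over probe sets and with the second brightest one, being below the floor in every line. CLDN4 in TCam-2 was lost with the second brightest. CDH1, EPCAM and CD24 in GCT44 were lost without _s_at and _x_at probe sets. Where it did not, 25 newly met the threshold in use, some against the mean of the other lines or at a threshold of 1. No paired analysis was possible because each line has 1 array. Values below the floor have no order, so the depth of the low signals in GCT44 is not measured.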
